A study of Oryza sativa with 4 samples.

Results

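A set of 98 rice loci was abundant in the wild-type panicle library and nearly without reads in the MIM396 panicle library. The loci were chosen from the 55986 loci of the deposited expression table by 2 limits on its count columns, at least 1000 in the wild-type column and at most 3 in the MIM396 column. Those columns hold read numbers scaled by the authors with a single factor for each library (0.844 in MIM396 and 1.057 in wild type), so the limits correspond to at most 3 reads in MIM396 and at least 946 reads in wild type. Since the choice rests on the same values, the difference between the libraries is a description of the set and was not tested.

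The series asked which genes OsGRF6, a growth-regulating transcription factor, controls in rice. It holds 4 libraries in 4 groups. MIM396 RNA was labelled as from panicles (the rice inflorescence) of plants that carry p35S:MIM396, a target-mimic transcript that sequesters the microRNA miR396, driven by the constitutive 35S promoter. Wild-type RNA was labelled as from panicles of Yutai B, and both panicle samples were labelled with the stage at which secondary branches develop. The labels name Yutai B for the wild type and give no cultivar for the MIM396 plants. Callus of p35S:GRF6-GFP lines gave the other 2 libraries, chromatin precipitated with an antibody to GFP and its input. Because each group is a single library, values have no error between replicates, and in bulk tissue fewer cells that express a gene and less RNA per cell cannot be told apart.

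miR396 lowers the transcripts of most growth-regulating factors, plant transcription factors that promote cell proliferation in young organs, so a mimic that captures the microRNA leaves more of these factors. Transcripts of carbon fixation are typical of organs that have turned green, while meristem regulators such as the class I KNOX genes mark young inflorescences. Clusters of similar genes that stand next to each other in plant genomes usually arise by tandem duplication, and members of 1 cluster can differ in where they are expressed.

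The panicle libraries held 13125598 reads in MIM396 and 16337503 in wild type, recovered from the scaled values, and 24528 and 24720 loci had a value above 0. The labelled tissue was checked with loci named from general knowledge, in lists drawn up with earlier results of these data known. FPKM are fragments scaled to a length and a library total, and the length used is not given. Of 18 panicle and meristem regulators, 15 had at least 1 FPKM in MIM396 and 7 in wild type. The list summed to 1155 FPKM in MIM396 and 328 FPKM in wild type. The largest MIM396 value was that of LOC_Os08g39890, with 631 FPKM in MIM396 and 1.82 FPKM in wild type. The listed loci with the higher FPKM in wild type were LOC_Os01g40630, LOC_Os03g54160, LOC_Os06g50340 and LOC_Os01g10504. LOC_Os01g40630 had 8.47 FPKM in MIM396 and 131 FPKM in wild type, and LOC_Os03g54160 had 94 and 111 FPKM in that order. None of the 18 was without reads in MIM396 and 6 were without reads in wild type, among them LOC_Os03g51690, with 134 FPKM in MIM396 and 0 in wild type. The green-tissue lists (light-harvesting proteins, photosystem subunits, Rubisco small subunits and activase, Calvin cycle enzymes) summed to 256 FPKM in MIM396 and 156362 FPKM in wild type over 35 loci found of 36. The lists for anther tapetum and seed glutelins stayed low, at 2.01 and 3.37 FPKM in MIM396 and 2.31 and 5.75 FPKM in wild type. On most of the panicle markers the wild-type library goes against its label, and the libraries differ in tissue markers as well as in genotype. The part of these marker differences in the pattern of the 98 loci was not tested.

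The 98 loci together had 100 reads in MIM396 and 316115 in wild type. In MIM396, 38 loci had 0 reads, 31 had 1, 18 had 2 and 11 had 3. Their FPKM ran up to 0.300 in MIM396, with a median of 0.029, and from 23.2 to 2497 in wild type, with a median of 103.8. They held 0.00076% of the scaled MIM396 reads and 1.93% of the scaled wild-type reads. No locus of the set overlaps between the libraries, which the rule itself fixes.

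**Figure D1:**
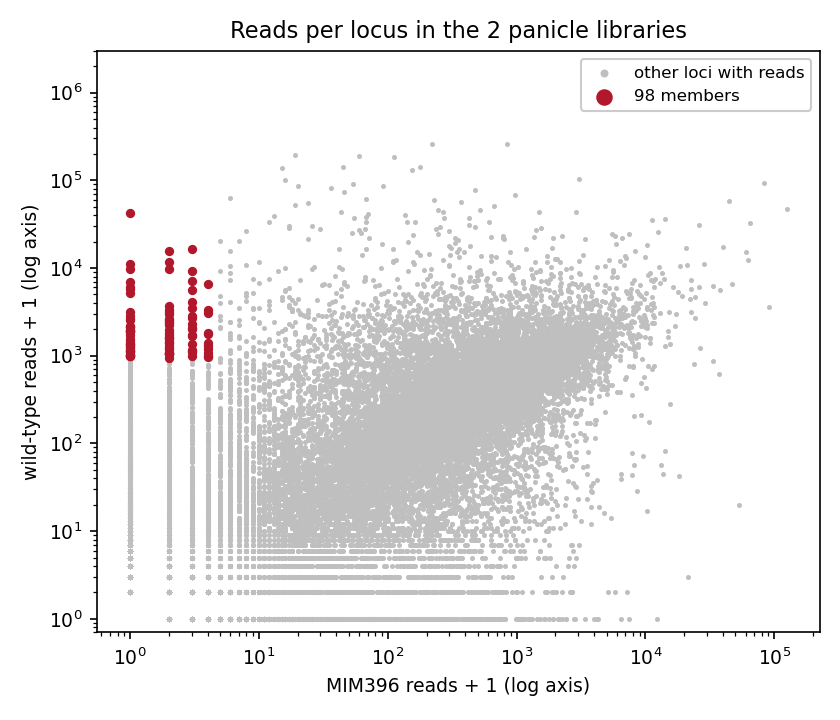
Each point is a locus with a read in either library, with MIM396 reads + 1 on the horizontal and wild-type reads + 1 on the vertical axis (both log). The 98 members (red) form 4 columns at 0, 1, 2 and 3 MIM396 reads, from 950 wild-type reads upward.

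Of the 3143 loci with at least 1000 in the wild-type column (abundant loci), 3.12% met the MIM396 limit. On log2(FPKM + 1) values all 98 were lower by 2-fold or more, which their choice fixes, and 27.3% of the 19456 loci that averaged 1 FPKM or more were lower by that much. The median log2 ratio of MIM396 over wild type was -6.67 for the members and -1.12 for the other 3045 abundant loci. The opposite pattern, at least 1000 in the MIM396 column and at most 3 in the wild-type column, was met by 41 loci.

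Members with 0 MIM396 reads had a median of 1784.5 wild-type reads (983 to 42731). The median was 1640.0 wild-type reads for members with 1 MIM396 read, 2189.5 for those with 2 and 1382 for those with 3, and wild-type reads of the members with 1 to 3 ran from 950 to 16541. For a locus with 0 reads, a fold was computed against 3 reads, the upper limit that a count of 0 allows in the library, and these bounds ran from at least 410.4-fold to at least 17838-fold lower in MIM396. For loci with 1 to 3 reads the ratio of scaled reads ran from 402.4-fold to 19592-fold lower. The bounds for 0 reads are also in scaled reads. The authors' factor was lower for MIM396 (0.844), the library with fewer reads, than for wild type (1.057), so scaled totals were unequal. At equal library totals every bound and ratio given here would be smaller. Ratios below carry 95% exact conditional binomial intervals, which cover counting error only.

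**Figure D2:**
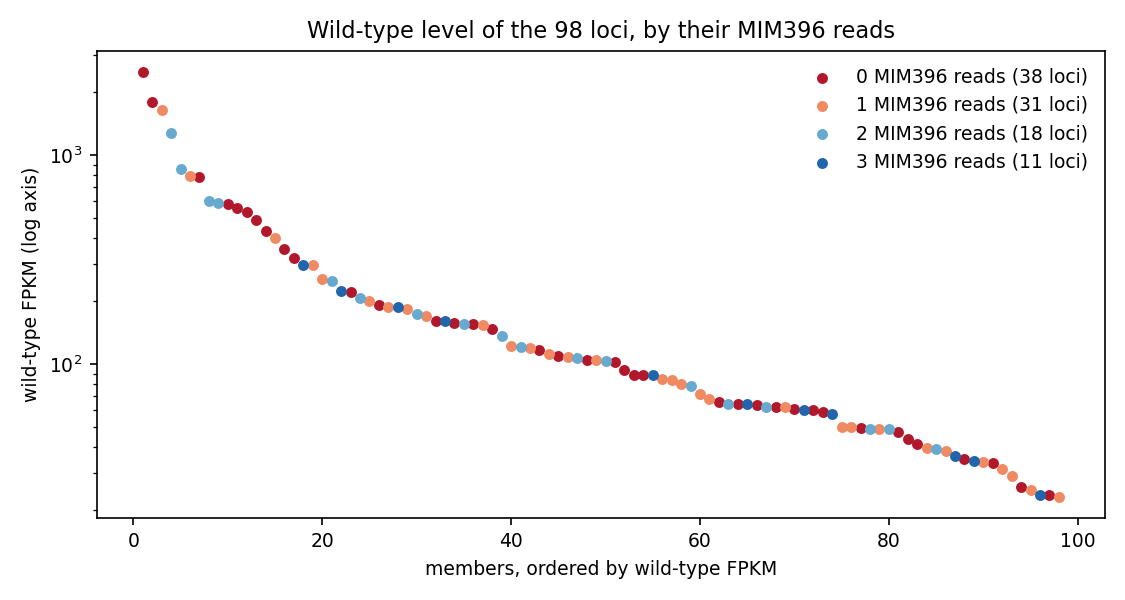
Wild-type FPKM (log axis) of the 98 loci in descending order, coloured by the number of MIM396 reads. Loci with 0 MIM396 reads occur from the highest value (2497 FPKM) to the low end (23.5 FPKM), mixed with those at 1, 2 and 3 reads.

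Members and the other abundant loci were cut at the same wild-type limit, which brings their read numbers together at the lower end. The members had a median of 1752 wild-type reads (quartiles 1180 and 2832), against 1636 (1199 and 2746) for the other abundant loci. In FPKM the members stood higher, and their genomic spans were shorter (a median of 2276.5 bp against 4309 bp). The length behind FPKM is not given and need not be the genomic span. At least 500 FPKM in wild type was seen for 12 members (12.2%) and for 162 of the other abundant loci (5.32%). A further 13 members had 200 to 500 FPKM in wild type, 26 had 100 to 200 FPKM and 47 had under 100 FPKM. The 10 members with the most wild-type reads held 44.4% of the reads of the set. The highest member ranked 41 in the wild-type library by FPKM.

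Neither the deposited tables nor the RefSeq gene table (assembly ASM3414082v1) pairs these loci with names, and 0 of the table's identifiers occur in RefSeq. A family is given for 6 members only, from general knowledge of the rice locus names, where the RefSeq table also lists a gene with that family's symbol on the same chromosome. Such a gene is not paired with the locus, so the names rest on general knowledge and were not checked here. The other 92 carry no name here. By these names the 6 loci encode a water channel, a Calvin cycle enzyme, lipid transfer proteins, a glutathione S-transferase and a peroxidase.

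LOC_Os09g36930 (chromosome 9, 21310128 to 21311548) is the aquaporin PIP2;7, a channel of the plasma membrane that lets water through. It had 0 reads in MIM396 and 42731 reads in wild type, or 0 and 2497 FPKM, at least 17838-fold lower in MIM396. This locus alone held 13.5% of the wild-type reads of the set. Its neighbour LOC_Os09g36920 had 779 reads in MIM396 and 405 in wild type, and LOC_Os09g36910 had 593 and 2 reads in the same order, so the 2 loci before the aquaporin were covered in MIM396.

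LOC_Os03g16050 (chromosome 3, 8841267 to 8843069) is the chloroplast fructose-1,6-bisphosphatase, which removes a phosphate in the regeneration phase of the Calvin cycle. It had 1 read in MIM396 and 15644 reads in wild type, or 0.041 and 792 FPKM, 19592-fold lower in MIM396 (3516 to 773881). The next locus, LOC_Os03g16060, had 0.959 FPKM in MIM396 and 7.12 FPKM in wild type, and LOC_Os03g16070 had 46.5 and 3.44 FPKM, so these 2 neighbours went in opposite directions.

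None of the listed green-tissue loci was a member. The lists left out the fructose-1,6-bisphosphatase LOC_Os03g16050, a Calvin cycle enzyme that is a member, so this holds for the listed loci only. Of the 35 found, 34 had at least 1000 in the wild-type column and 32 of these were at least 100-fold lower in MIM396, against 9.51% of all abundant loci, but none of the 34 had as few as 3 MIM396 reads. The MIM396 reads of the 34 ran from 4 to 520, with a median of 67. The lowest was LOC_Os04g16680 of the Calvin cycle list, with 4 reads (0.141 FPKM) in MIM396 and 20525 reads (902 FPKM) in wild type. LOC_Os12g19470 of the Rubisco list had 5 reads in MIM396 and 63022 in wild type. Of these listed loci, LOC_Os04g16680 was close to the fructose-1,6-bisphosphatase (1 read in MIM396 and 792 FPKM in wild type) on both measures, and the median of 67 MIM396 reads lay well above the limit.

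Lipid transfer proteins are small secreted proteins that bind lipids and take part in building the cuticle. LOC_Os11g02400 (chromosome 11, 715399 to 716542) had 2 reads in MIM396 and 16541 in wild type, or 0.125 and 1280 FPKM, 10357-fold lower in MIM396 (2867 to 85533). LOC_Os12g02320 (chromosome 12, 737405 to 737894), the shortest member with a span of 490 bp, had 0 reads in MIM396 and 2113 in wild type, or 0 and 782 FPKM, at least 882-fold lower in MIM396. Both lie in the first 1 Mb of their chromosomes, whose short-arm ends are known as duplicates of each other, so reads of near-identical copies may have been divided between loci and the values of single copies are uncertain.

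Position was not used by the rule. Within 5 loci of another member stood 9 of the 98 (9.18%), in 4 groups, and all 4 were on chromosomes 11 and 12. Of the 3143 abundant loci, 58.9% had another abundant locus within 5, a set with many more loci per chromosome, so the shares are not on an equal footing. The other 89 members had no second member within 5 loci.

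The group with the most members was LOC_Os12g02320, LOC_Os12g02330 and LOC_Os12g02340, which follow each other over 25.1 kb of chromosome 12. LOC_Os12g02330 had 0 reads in MIM396 and 6913 in wild type (536 FPKM), and LOC_Os12g02340 had 2 reads in MIM396 and 9245 in wild type (855 FPKM). On either side of these 3 loci the reads went the same way but stayed under the wild-type limit, with 1 and 485 reads in MIM396 and wild type at LOC_Os12g02310 and with 0 and 244 reads at LOC_Os12g02350. The loci before these were the opposite. LOC_Os12g02300 had 645 reads in MIM396 and 0 in wild type, and LOC_Os12g02290 had 1217 in MIM396 and 0 in wild type. Along this stretch, loci covered almost only in MIM396 therefore stood directly before loci covered almost only in wild type.

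The lipid transfer stretch of chromosome 11 also held loci of both kinds, in another order. LOC_Os11g02424, separated from LOC_Os11g02400 by a locus without reads, had 1 read in MIM396 and 2404 in wild type (201 FPKM). LOC_Os11g02389 missed the set with 9 reads in MIM396 and 6744 in wild type, and LOC_Os11g02369 had 3 reads in MIM396 and 296 in wild type. Between them, LOC_Os11g02379 had 80 reads in MIM396 and 2 in wild type. Farther along, LOC_Os11g02464 on chromosome 11 had 1492 reads in MIM396 and 371 in wild type, and LOC_Os12g02390 on chromosome 12 had 1926 and 468 reads in that order, loci covered in each library.

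A separate pair on chromosome 11, LOC_Os11g10310 and LOC_Os11g10320, spanned 16.6 kb. LOC_Os11g10320 (5605242 to 5607269) had 1 read in MIM396 and 9631 in wild type, or 0.140 and 1649 FPKM, the third highest wild-type level of the set and 12061-fold lower in MIM396 (2164 to 476447). LOC_Os11g10310 had 2 reads in MIM396 and 2836 in wild type, and shares its interval with LOC_Os11g10300, which had 8 reads in MIM396 and 5 in wild type.

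On chromosome 12, LOC_Os12g33120 (20042284 to 20043114) and LOC_Os12g33150 (20058248 to 20059540) formed the last pair. LOC_Os12g33120 had 0 reads in MIM396 and 11061 in wild type, or 0 and 1797 FPKM, at least 4617-fold lower in MIM396. LOC_Os12g33150 had 0 reads in MIM396 and 1128 in wild type (581 FPKM). LOC_Os12g33130 between them also had 0 reads in MIM396 and 516 in wild type, while LOC_Os12g33140 had none in either library. The flanks LOC_Os12g33100 and LOC_Os12g33160 had 1231 and 521 reads in MIM396 and 177 and 1038 in wild type, so the loci without MIM396 reads ended between flanks that had them.

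**Figure D3:**
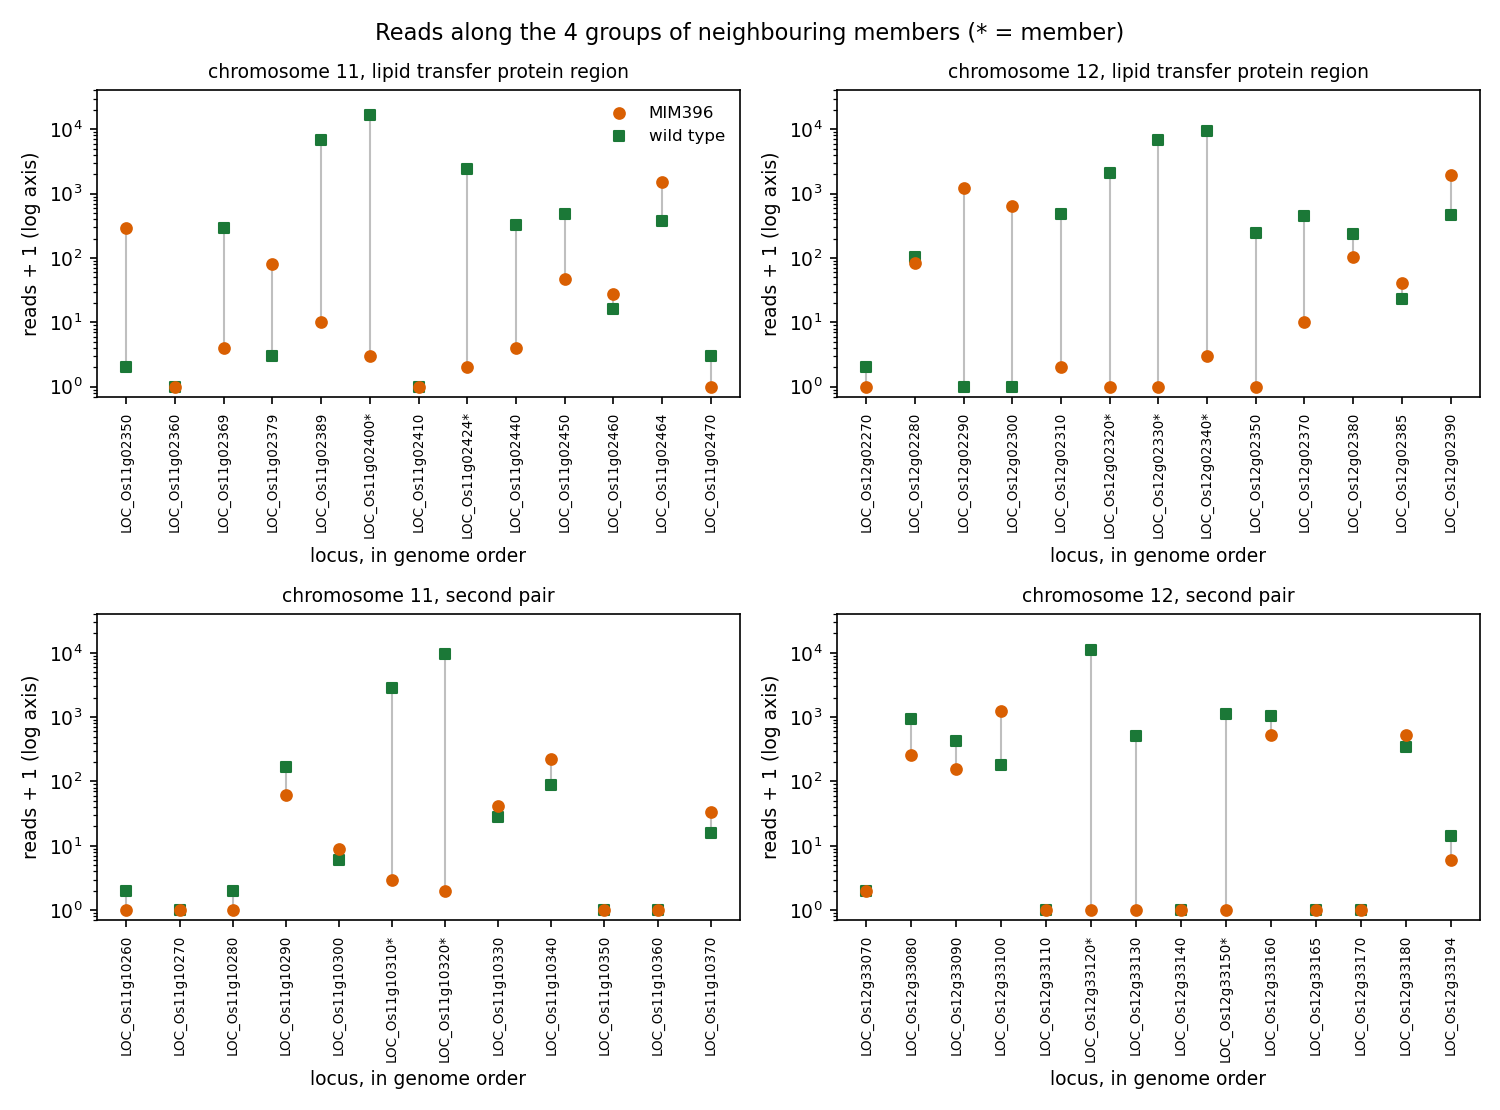
Reads + 1 (log axis) in MIM396 (orange circles) and wild type (green squares) along the 4 groups of neighbouring members, with loci in genome order and members marked by an asterisk. On chromosome 12, LOC_Os12g02290 and LOC_Os12g02300 have 1217 and 645 MIM396 reads beside members with 0 to 2.

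A looser run on chromosome 6 held 3 members over 117.4 kb. LOC_Os06g28050 had 0 reads in MIM396 and 6091 in wild type, LOC_Os06g28124 had 0 and 998, and LOC_Os06g28194, the member with the longest span (21548 bp), had 1 and 11695. Of the 11 loci between them, 9 had no reads in either library and the other 2 had similar reads in both, 1331 in MIM396 and 1037 in wild type at LOC_Os06g28060 and 278 and 254 at LOC_Os06g28144. The low MIM396 reads did not extend over the whole stretch.

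The other named members had no second member within 5 loci. LOC_Os10g38700 is a tau-class glutathione S-transferase, an enzyme that joins glutathione to reactive compounds. It had 0 reads in MIM396 and 2121 in wild type (148 FPKM). The adjacent LOC_Os10g38710 had a like wild-type level, with 14 reads in MIM396 and 1931 in wild type (163 FPKM), and missed the set on its MIM396 reads. LOC_Os10g38720 had 23 reads in MIM396 and 0 in wild type, and the 3 loci before LOC_Os10g38700 had no reads in either library.

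LOC_Os07g48040 is a class III peroxidase, of the secreted type that acts on cell wall phenolics. It had 0 reads in MIM396 and 2819 in wild type (157 FPKM), at least 1177-fold lower in MIM396. The loci beside it were low in both libraries, with 11 reads in MIM396 and 0 in wild type at LOC_Os07g48030 and 0 and 5 at LOC_Os07g48050, and LOC_Os07g48020 had 23 and 25 reads. Within 2 places on each side this locus was the only one with more than 100 reads in either library.

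Of the unnamed members with at least 500 FPKM in wild type, 3 stood alone. LOC_Os10g39150 (chromosome 10, 20893497 to 20895220) had 2 reads in MIM396 and 7141 in wild type, or 0.136 and 603 FPKM. LOC_Os03g03724 (chromosome 3, 1667247 to 1667963) had 2 reads in MIM396 and 3509 in wild type, or 0.286 and 587 FPKM. It follows LOC_Os03g03720, a locus of the Calvin cycle list, which had 2.11 FPKM in MIM396 and 1322 FPKM in wild type. LOC_Os09g39060 (chromosome 9, 22420897 to 22422558) had 0 reads in MIM396 and 9845 in wild type, or 0 and 559 FPKM.

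The next unnamed members by wild-type FPKM had 0 to 3 reads in MIM396, which the rule fixes. LOC_Os04g21350 had 0 reads in MIM396 and 5168 in wild type (488 FPKM), LOC_Os06g21110 had 0 and 1905 (353 FPKM), and LOC_Os04g10940 had 0 and 1975 (321 FPKM). LOC_Os05g28090 had 1 read in MIM396 and 3663 in wild type, 4587-fold lower in MIM396 (823 to 181240). LOC_Os03g14669 had 3 reads in MIM396 and 6558 in wild type, 2738-fold lower in MIM396 (936 to 13279). The widths of these intervals follow from the few MIM396 reads, and the intervals of these 2 ratios overlap. LOC_Os03g12990 had 1 read in MIM396 and 2545 in wild type (256 FPKM).

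At the limits of the rule the set passed without a gap into its surroundings. The 5 members with the lowest wild-type values, LOC_Os09g34214, LOC_Os02g53750, LOC_Os06g47800, LOC_Os01g57560 and LOC_Os10g07229, had 950 to 990 wild-type reads and 0 to 3 in MIM396. The 5 loci just under the wild-type limit, led by LOC_Os01g44430 with 0 reads in MIM396 and 936 in wild type, had 932 to 936 wild-type reads. At the MIM396 limit, 11 members had 3 reads and 8 abundant loci had 4. Among those 8, after LOC_Os04g16680 given above, LOC_Os01g73250 had 643 FPKM in wild type and LOC_Os08g32930 had 409 FPKM, and LOC_Os03g14669, the highest member at 3 reads, had 298 FPKM.

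Members were unevenly spread over the 12 chromosomes. Chromosome 6 held 14, chromosomes 10 and 12 held 11 each, chromosome 2 held 10, chromosomes 1, 3 and 4 held 9 each, chromosomes 5 and 11 held 7 each, chromosome 7 held 6 and chromosome 9 held 5. Chromosome 8 held none of the 98 members. As a share of the abundant loci of a chromosome, members made up 7.64% on chromosome 10 (3.87 to 13.3%, Clopper-Pearson), 7.38% on chromosome 12 (3.74 to 12.8%), 5.93% on chromosome 11 (2.42 to 11.8%) and 5.91% on chromosome 6 (3.27 to 9.71%), and 1.89% on chromosome 3 (0.866 to 3.55%). Loci of a group of neighbouring members may not be independent, and these intervals would then be too narrow where groups occur.

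On chromosome 8, 0 of 237 abundant loci were members, which allows a share of up to 1.27% by the limit of 3 counts and 1.54% by the Clopper-Pearson interval. The lowest there were LOC_Os08g27010, with 4 reads in MIM396 and 2066 in wild type, and LOC_Os08g32930, with 4 and 4857. Loci at least 100-fold lower in MIM396 did occur on the chromosome, with 16 of the 201 such loci outside the set (7.96%), close to its 7.54% of abundant loci. Chromosome 8 thus lacked loci under the limit of 3 reads, and loci with a 100-fold difference were present.

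**Figure D4:**
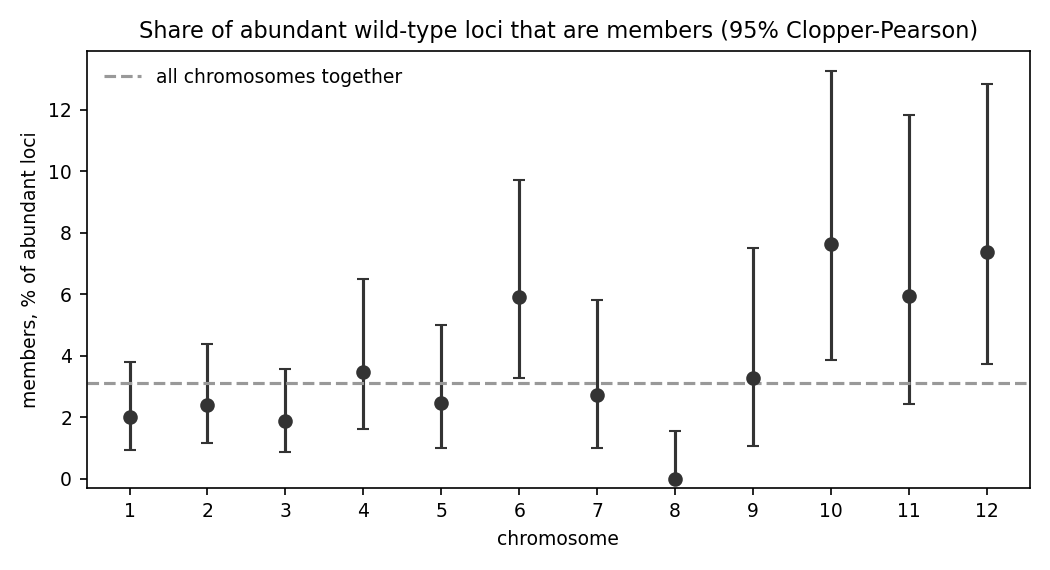
Members as a percent of the abundant loci of each chromosome, with 95% Clopper-Pearson intervals and the share over all chromosomes as a dashed line (3.12%). Chromosomes 6, 10 and 12 have intervals above that line, and the interval of chromosome 8 (0 of 237) lies below it.

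The members were shorter in the genome than other abundant loci. The quartiles of their span were 1533 and 4146 bp, against 2787 and 6373 bp for the 3045 other abundant loci. The 201 loci outside the set that were at least 100-fold lower in MIM396, 9.51% of abundant loci together with the members, had a median of 2607 bp, so a short span was shared with these.

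Loci next to members were more often lower in MIM396 than loci elsewhere. Of 189 loci directly beside a member, 71 had no reads in either library and 85 averaged 1 FPKM or more. Of these 85, 35 (41.2%) were at least 2-fold lower in MIM396, 14 (16.5%) at least 2-fold higher and 36 neither, with a median log2 ratio of -0.49. Beside the other abundant loci, 21.3% of 2743 at that level were lower and 25.2% higher. Over all loci that averaged 1 FPKM or more, 27.3% were lower and 23.1% higher. Neighbours of members could be abundant loci themselves, while neighbours of the other abundant loci excluded every abundant locus. Of the 3045 abundant loci outside the set, 1589 were at least 2-fold lower in MIM396. The shares beside the 2 sets are therefore not on an equal footing. Outside the 4 groups, 29 of 78 neighbours (37.2%) were lower, with a median of -0.34. These are shares of neighbours without a test, and neighbouring genes can share sequence, which was not compared here.

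No member was placed at an OsGRF6-GFP peak by the authors. Their peak table listed 142 peaks with numbers up to 200, so peaks with other numbers were not analysed here. The listed peaks were paired with 0 of the 98 members, 35 of the 3143 abundant loci (1.11%) and 0.313% of all loci. A count of 0 among 98 allows a share of up to 3.06%, above the share of abundant loci, so fewer peaks at members than at other abundant loci were not detectable with this number. The nearest peak to a member, peak 75, lay 7204 bp from LOC_Os03g57149. The ChIP sample was labelled callus and the RNA samples panicle.

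The authors' adjusted p-values divided the members by their MIM396 reads. In the authors' deposited table, none of the 38 members with 0 MIM396 reads had an FDR under 0.05, with values from 0.0783 to 0.354. All 31 members with 1 read had an FDR under 0.05 in the authors' deposited table, as had 17 of 18 with 2 reads and 10 of 11 with 3 reads, against 21.7% of all abundant loci and 4.95% of all loci. LOC_Os09g36930, the highest member, had an FDR of 0.284 in the authors' deposited table, and LOC_Os11g10320, with 1 read, had 1.63e-08. The same division was present for loci with at least 1000 in the MIM396 column, where 0 of 24 loci with 0 wild-type reads and 19 of 20 with 1 to 3 had an FDR under 0.05 in the authors' deposited table. A list taken at that FDR would leave out these 38 loci, including the aquaporin, the lipid transfer locus LOC_Os12g02320, the glutathione S-transferase and the peroxidase. No label or header names the test behind the FDR, and what sets the division was not tested.

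**Figure D5:**
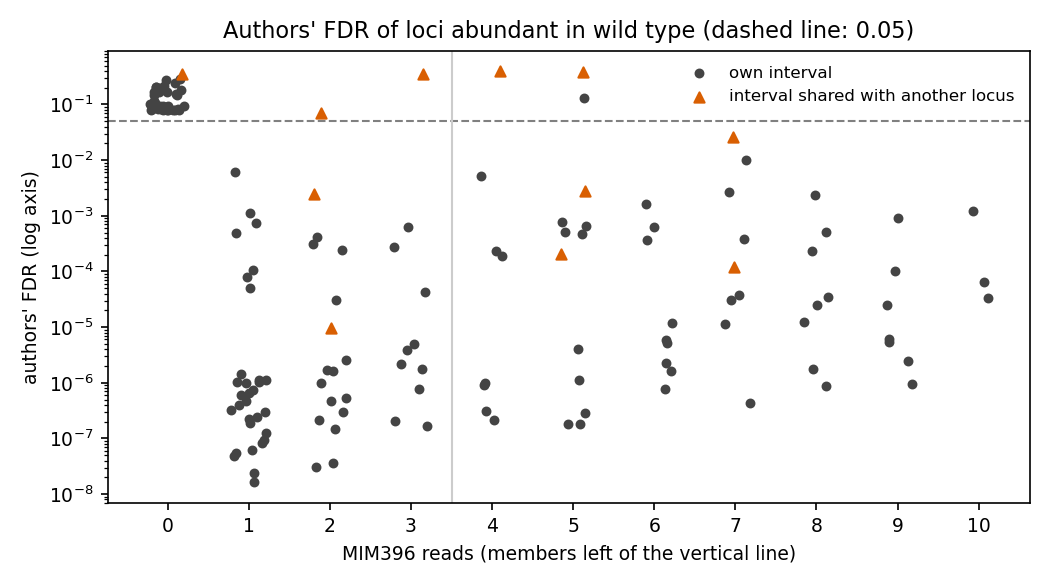
The authors' FDR (log axis) of loci abundant in wild type, by MIM396 reads from 0 to 10, with members left of the vertical line and loci that share an interval as triangles. All 38 loci at 0 reads lie above the dashed line at 0.05, and the loci at 1 read lie below it.

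The exceptions at 2 and 3 reads each share an interval with another locus, but so do members that were under 0.05 in the authors' deposited table, LOC_Os01g66000 (2 reads, FDR 9.82e-06) and LOC_Os11g10310 (2 reads, FDR 0.00243). LOC_Os05g40190 had 2 reads in MIM396 and 1102 in wild type, with an FDR of 0.0710 in the authors' deposited table, and LOC_Os11g34130 had 3 and 1760 reads, with 0.350 in that table. Shared intervals were found for 5 members (5.10%), 6.73% of the other abundant loci and 3.08% of all loci. At LOC_Os11g34130 the partner LOC_Os11g34140 had 274 reads in MIM396 and 154 in wild type, so reads of this member may have been divided in either library. LOC_Os02g49870 had 0 reads in MIM396 and 5757 in wild type, and its partner LOC_Os02g49880 had 7 and 4162 reads, the same direction. LOC_Os01g66000 had 2 and 4062 reads, and its partner LOC_Os01g65992 had 0 and 3.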

How the data were processed

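The expression table, 1 MIM396 and 1 wild-type library, was used as deposited. Its count columns are a read signal that the authors multiplied by 1 factor per library, and dividing by the value of a single read returned whole reads (tolerance 0.01) for 99.0% of positive entries in MIM396 and 97.8% in wild type. Deposited values carry 6 significant digits. FPKM were computed by the authors, with a scaling that the headers do not give. The FDR (an adjusted p-value) is quoted as the authors deposited it. FastQC and Bowtie are named without versions in the submitters' processing notes. For the counting tool, build, annotation release and strand setting: not given in the sources used here. Genome positions are those of the table.

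With 1 library per group no count test was run. Log2 ratios used FPKM + 1, and the size limit was a log2 ratio of 1, up or down, among loci that averaged 1 FPKM or more. Conditional binomial intervals for ratios and limits for a count of 0 (3 reads) cover counting error of reads only. Reads were not tied to single molecules by identifiers. Clopper-Pearson intervals and limits for shares treat loci as independent draws. They cover neither counting error of reads nor variation between libraries. Members, lists and limits were chosen with earlier results of these data known. Named loci are the 20 members with the highest wild-type FPKM, those in groups within 5 loci, listed loci in or near the set and the 5 loci on each side of a limit. The looser run, members with a family name, shared intervals and neighbours were added after their values were seen. Lists of Bowman-Birk inhibitors, leaf thionins and pathogenesis-related genes held 0 members. The rule, the intervals of ratios and the search for members within 5 loci were tested on simulated data. The values of loci beside members and the Clopper-Pearson intervals were not tested in this way. Python 3.11.15, pandas 2.3.3, scipy 1.17.1 and matplotlib 3.10.9 were used. No sequence of these loci was used here.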

Additional observations from a re-analysis of the deposited data

How the results depend on the processing

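The number of members followed its limits. It was 186 with a wild-type limit of 500 and 45 with 2000, and 38 with a MIM396 limit of 0 and 163 with a limit of 10. With recovered reads in place of scaled values, 91 of the 98 loci met the limits, and with libraries brought to equal totals 67 did, with 0 others gained in either case. The median wild-type FPKM was 54.4 with the limit of 500 and 201 with 2000. The median log2 ratio of -6.67 was -4.43 with 5 FPKM added and -9.41 with 0.1 FPKM added. The 9 members with another member nearby were 5 when only the next locus counted and 12 within 10 loci. Lower loci beside members were 35 at the nearest place and 61 with the nearest 2 on each side, where 34.3% were lower. Counting error limits the MIM396 side most, since 3 and 4 reads cannot be told apart by counting. No paired analysis was possible because each group holds 1 library. The alternatives for neighbours, for peaks within 3 kb (0 members) and for the first 1 Mb of chromosomes 11 and 12 (93 members without them) were chosen after seeing the data.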
